A study of Gallus gallus with 24 samples.

Results

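The RAB, ARF, ARL and SAR1 proteins are small GTPases that mark the membranes of a cell and steer vesicles between them, and the TBC1D proteins carry the domain that switches RAB proteins off. All features of the deposited table whose identifier starts with RAB, ARF or ARL and a digit, with SAR1 or with TBC1D were taken as members, which gave 82 of 17934 features. These are 45 RAB, 1 ARF, 15 ARL, 1 SAR1 and 20 TBC1D identifiers, and the RAB identifiers include proteins that only bind or regulate RAB proteins (RAB3GAP1 and RAB3GAP2, RAB3IP, RAB3IL1 and the RAB11FIP proteins). The abdominal fat of cockerels at 7 wk of age was sequenced in 4 birds of a fat line (FL) and 4 birds of a lean line (LL), broiler-type chickens selected for 7 generations in opposite directions on the weight of this fat depot, with no allele or agent added in either line. Every library was run 3 times, so that 24 runs describe 8 birds, and the runs of a bird were summed. The lines are genetic stocks that differ at many loci, the samples are whole tissue, and 1 age was used.

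A RAB protein bound to GTP sits on a membrane and recruits the motors, tethers and enzymes of that membrane, and it leaves once a GTPase-activating protein (GAP) has made it hydrolyse GTP. Exchange factors load GTP again, and ARF, ARL and SAR1 proteins work in the same manner on vesicle coats, the Golgi complex, lysosomes and cilia. In fat cells of mammals, RAB18 sits on the surface of the lipid droplet, and RAB7A marks the late endosome and the lysosome. RAB8A, RAB10 and RAB14 have been linked in mammals, not always in fat cells, to vesicles that carry the insulin-regulated glucose transporter GLUT4. TBC1D4 and TBC1D1 are GAPs linked to the control of these vesicles. The chicken is thought to lack a GLUT4 gene, so the vesicle roles of these members are known from mammals only. Levels are given as CPM (the counts of a gene per 1000000 counts) on TMM-scaled library sizes, and they are not per transcript length, so that an order of genes by CPM is an order of counts and not of transcript numbers.

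The libraries held 4299772 to 12876999 counts on genes per bird, of which the members took 0.354 to 0.441%. The summed level of 4 skeletal muscle markers was 16023 CPM in FL bird 4 against 73.5 to 120.4 CPM in the other 7 birds, so FL bird 4 stood apart. The summed level of 10 epithelial or mesothelial markers was 322 to 466 CPM in the FL and 686 to 992 CPM in the LL, with 7 of the 10 at an unadjusted p under 0.05 and higher in the LL. Adipocyte markers (8 features of 7 genes) summed to 17663 to 23731 CPM in the FL and 13497 to 21776 CPM in the LL, and neural markers stayed at or under 0.947 CPM in every bird. Whether these other cells take part in the values of the members was not tested, and in whole tissue fewer cells of a type and less RNA per cell cannot be told apart. The first run of FL bird 4 and of LL bird 3 was alone in its lane, that of the other 6 birds shared a lane with 3 further libraries, and the later runs were sequenced 8 libraries per lane. This layout is that of the study's supplement, since the labels number the sequencing schemes in another order and do not tie single runs to them.

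Most of the family was read in this fat. Of the 82 members, 69 had at least 1 CPM in all 8 birds, 49 had at least 10 CPM and 10 had at least 100 CPM. The share with at least 10 CPM was 59.8% of the members and 40.2% of all features. The members with at least 100 CPM in every bird lay on the Golgi and endosome side (ARF5_CHICK, RAB2A, RAB14, RAB5C and RAB7A), on secretory vesicles and droplets (RAB8A and RAB18) and among the regulators (RAB11FIP2, TBC1D4 and TBC1D9B). All 20 TBC1D genes passed the filter on low counts, as did 37 of 45 RAB, 13 of 15 ARL, and the single ARF and SAR1 identifiers, so 72 members were tested. Of the 10 that did not pass, 9 were ARL14, the first of 2 features named RAB11FIP3, RAB17, RAB19, RAB33A, RAB36, RAB38, RAB39 and RAB3C. RAB39 had at most 3 counts in any bird. RAB17, an epithelial RAB of mammals, was at 3.92 CPM in FL bird 4 and at 0 to 1.42 CPM in the other birds.

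**Figure D1:**
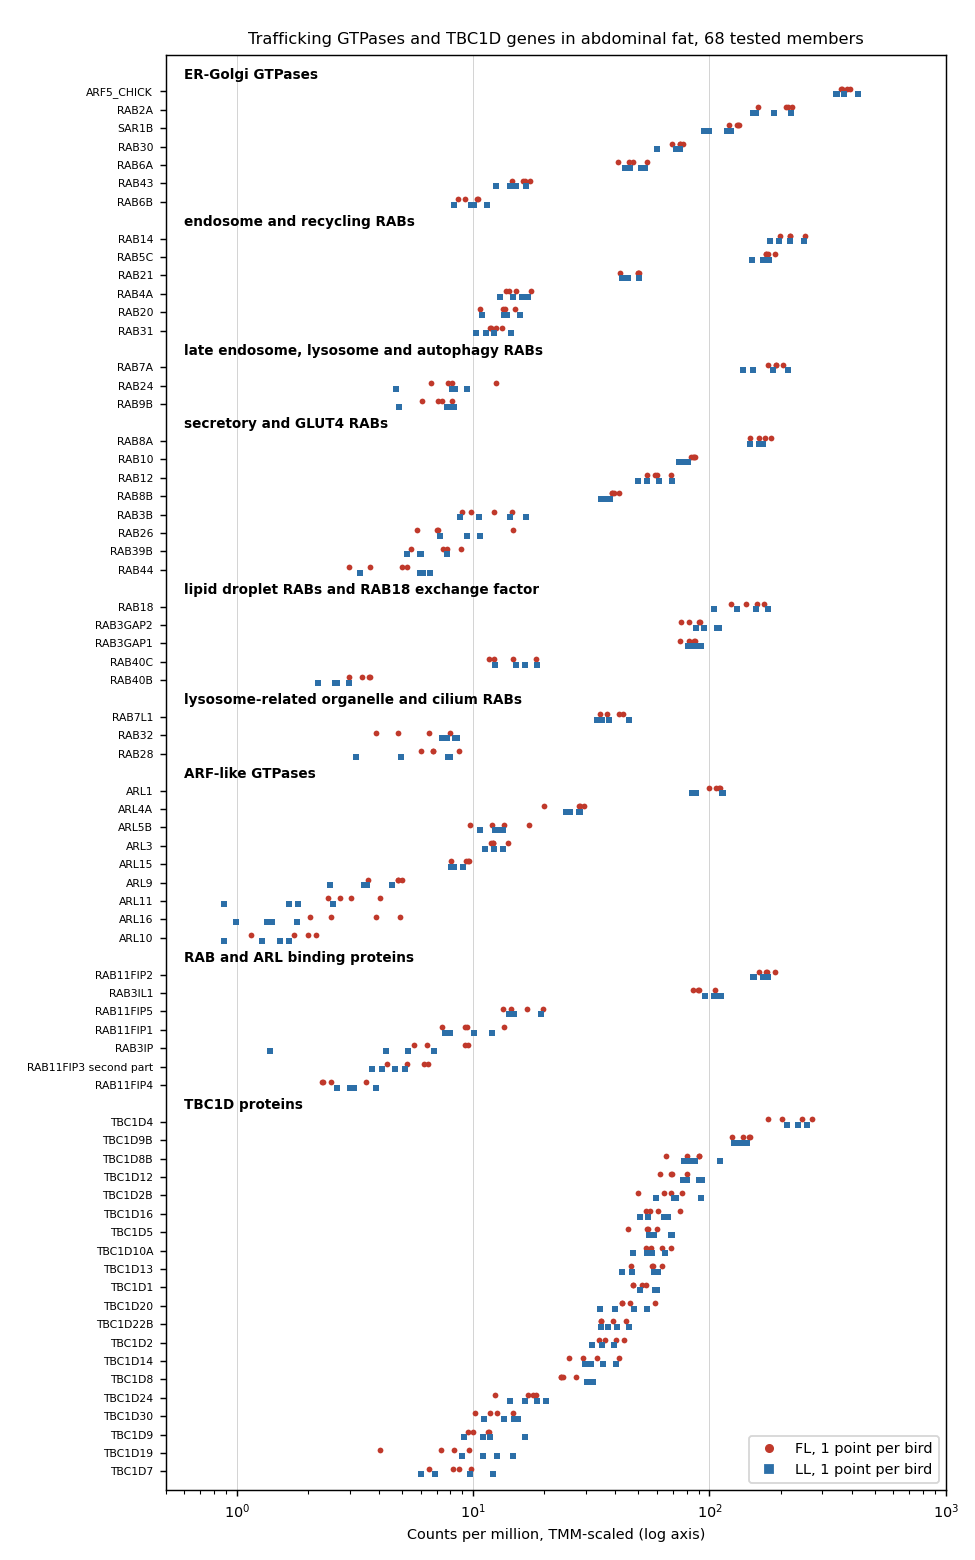
CPM of 68 of the 72 tested members on a log axis, 1 point per bird, FL as red circles and LL as blue squares, grouped by role and sorted by level within each group. The birds of the lines overlap in 64 of 68 rows, and the groups ARF-like GTPases and RAB and ARL binding proteins reach down to about 1 CPM.

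No member was a DE gene. At an adjusted p of 0.05 or less and a fold change of at least 1.2 (edgeR's quasi-likelihood F test), 0 of 72 members were called, where 41 of 11187 genes were called in all (0.366%, of which 0.206% with the FL and 0.161% with the LL on top). At an unadjusted p under 0.05 there were 7 of 72 members (9.72%), 3 with the FL and 4 with the LL on top, where 1467 of all genes tested (13.1%) passed this limit, 6.49% with the higher level in FL birds and 6.62% in LL birds. DESeq2 called 0 of 81 members and gave 7 an unadjusted p under 0.05, against 10.3% of all genes. Without FL bird 4, the bird with the muscle markers, 65 genes were called, 0 of them members. In that fit 9 of 73 members had an unadjusted p under 0.05, against 14.6% of all genes. Without FL bird 2, LL bird 2 and LL bird 3 it was 4 of 74, 3 of 73 and 4 of 74 members. The shares of all genes in these fits were 12.6, 10.5 and 12.4%. The birds of the lines did not overlap for 4 of 72 members, ARL16, RAB10 and RAB8B with every FL bird above every LL bird and TBC1D8 with every LL bird above every FL bird (5.56%, against 8.02% of all genes tested, 3.62% with the FL above and 4.4% with the LL above). Only TBC1D8 of these 4 was also apart in the later runs alone, where 6 of 72 members did not overlap (2 with the FL above, RAB3IP and SAR1B, and 4 with the LL above, among them RAB40C, TBC1D19 and TBC1D8), against 9.48% of all genes, 3.0% with the FL and 6.47% with the LL above. That reading of the later runs was chosen after the data were seen. In the edgeR fit of the later runs 8 of 70 members had an unadjusted p under 0.05, against 16.1% of all genes, and 0 were called.

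The median log2 fold change (FL over LL) of the 72 members was 0.04, against 0.00 over all genes tested, with a range from -0.71 to 1.26. In 42 members the estimate was above 0 and in 30 below 0, but with library sizes taken as total counts only 32 were above 0, so this split depends on the scaling. The 95% interval of the fold change lay within 1.5-fold either way for 53 of 72 members (73.6%) and for 53.8% of all genes, and within 2-fold for 67 members. The median SD between birds of a line was 0.196 on the log2 scale for the members and 0.236 for all genes. Both the interval and the SD depend on the number of counts, and the members were not set against genes of like level.

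**Figure D2:**
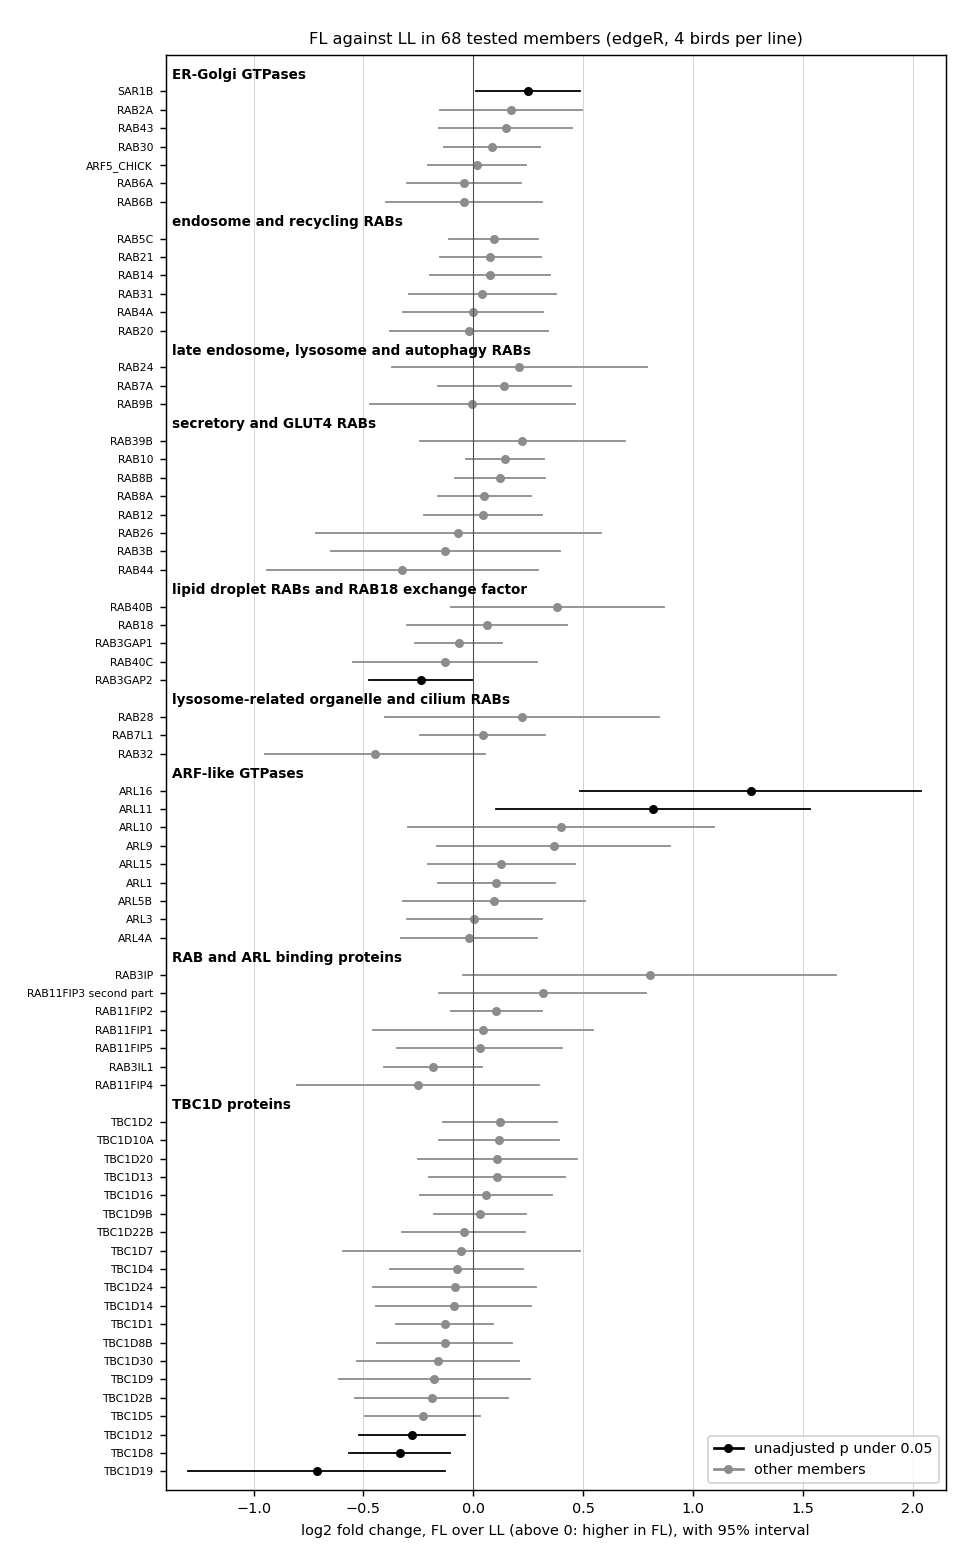
log2 fold change (FL over LL) with its 95% interval for 68 of the 72 tested members, grouped by role, with the 7 members at an unadjusted p under 0.05 in black. The intervals of the other 61 members cross 0, and those of the low-count members ARL16, ARL11, RAB3IP, RAB26 and RAB44 are wide.

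Among the GTPases between endoplasmic reticulum and Golgi, SAR1B, which starts the COPII coat on vesicles leaving the endoplasmic reticulum, was the member with the lowest p. SAR1B was at 131, 133, 133 and 121 CPM in FL birds 1 to 4 and at 123, 94.8, 99.8 and 118 CPM in LL birds 1 to 4. FL birds 1 to 3 were above every LL bird, while FL bird 4 lay among the higher LL birds, so the lines overlapped. The log2 difference was 0.25 (SE 0.11, unadjusted p = 0.041, edgeR adjusted p = 0.353). In the later runs alone SAR1B was at 116, 112, 112 and 122 CPM in the FL and 108, 89.5, 94.7 and 106 CPM in the LL, without overlap and with FL bird 4 the highest (log2 difference 0.27, unadjusted p = 0.014, edgeR adjusted p = 0.180). RAB2A, which acts between the endoplasmic reticulum and the Golgi complex, was at 214, 223, 212 and 160.4 CPM in the FL and 221, 153, 157 and 188 CPM in the LL (log2 difference 0.17, interval -0.15 to 0.50). The spread was wide in both lines, with FL bird 4 and LL birds 2 and 3 low. ARF5_CHICK was at 375 ± 16.3 CPM in the FL and 371 ± 37.0 CPM in the LL (SD, n = 4), a log2 difference of 0.02. Its identifier names ARF5, but it lies on chromosome 12 between PDE12 and F116A_CHICK. The RefSeq annotation has ARF4 on chromosome 12 between PDE12 and DENND6A, and ARF5 on chromosome 1 between PAX4 and GCC1. Its position is thus that of ARF4, and the deposited identifier is kept here because its sequence was not read. RAB30, RAB43, RAB6A and RAB6B, all named after RABs of the Golgi complex, had log2 differences from -0.04 to 0.15. RAB6B had no match among the RefSeq symbols.

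Several genes of these families, from the class above and from other classes, carry other identifiers in the table and fell outside the rule. Their names came from protein entries, and 8 such features (RAB1A, RAB11A, RAB11B, RAB33B, RABL3, RABL5, ARF1 and ARL6IP5) were read beside the members. None was called, and 3 had an unadjusted p under 0.05, all higher in the FL, where 6.49% of all genes were. With the FL above and no overlap there were 2 of the 8, against 3.62% of all genes. RAB1A, the RAB of vesicles from the endoplasmic reticulum to the Golgi complex, was at 469, 469.6, 469 and 384 CPM in the FL and 387, 363, 339 and 415 CPM in the LL (log2 difference 0.25, edgeR adjusted p = 0.345). FL birds 1 to 3 stood above all LL birds and FL bird 4 did not. RAB33B, a Golgi RAB that also binds an autophagy protein, was at 118 to 128 CPM in the FL and 80.5 to 115 CPM in the LL (log2 difference 0.31, adjusted p = 0.295), with no overlap of the birds. ARL6IP5, which binds an ARL protein and is no GTPase, was at 319.98 to 421 CPM in the FL and 229.6 to 294 CPM in the LL (log2 difference 0.53, adjusted p = 0.115), again with no overlap.

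None of the 6 endosome RABs tested had an unadjusted p under 0.05. RAB14, which works between the Golgi complex and early endosomes, was at 253, 219, 219.6 and 199.5 CPM in the FL and 251, 196, 181 and 218 CPM in the LL. RAB5C, a RAB of the early endosome, was at 177, 173, 174 and 189 CPM in the FL and 172, 169, 152 and 178 CPM in the LL. The lines overlapped for both, with log2 differences of 0.08 (interval -0.20 to 0.35) for RAB14 and 0.09 (interval -0.11 to 0.29) for RAB5C. RAB21, of the endocytosis of integrins, stood at 49.9 to 50.2 CPM in FL birds 1 to 3, at 41.9 CPM in FL bird 4, and at 42.5 to 50.3 CPM in the LL. RAB4A, RAB20 and RAB31 had log2 differences of -0.02 to 0.04, and the 95% interval of all 6 tested members of this class lay within 1.5-fold. The span of RAB4A, a RAB of fast recycling, shares 2197 bases with ACTA1, which had 115387 counts, and RAB4A was at 13.8 CPM in FL bird 4, where the muscle markers were high, and at 12.9 to 17.6 CPM in the other birds.

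RAB7A, the RAB of late endosomes and of their fusion with lysosomes, was at 205, 191, 190.5 and 178 CPM in the FL and 216, 154, 139 and 185 CPM in the LL. The highest and the 2 lowest values were all in LL birds, and the log2 difference of 0.14 (SE 0.14) had an interval from -0.16 to 0.44. RAB24, linked to autophagy, and RAB9B, of transport from late endosomes to the Golgi complex, had fewer counts. RAB24 was at 8.77 ± 2.54 CPM in the FL and 7.66 ± 2.05 CPM in the LL, and RAB9B at 7.18 ± 0.845 and 7.23 ± 1.61 CPM (SD, n = 4). Neither line was set apart for them.

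Of the secretory and GLUT4-vesicle RABs, RAB10 and RAB8B had FL birds above all LL birds by a small margin. RAB10, which in mouse fat cells takes GLUT4 vesicles to the cell surface, was at 85.6, 83.4, 86.6 and 86.05 CPM in the FL and 74.4, 81.4, 78.4 and 75.6 CPM in the LL. The FL birds were close together and the nearest LL bird was bird 2 in the summed runs, for a log2 difference of 0.14 (SE 0.08, interval -0.03 to 0.32, unadjusted p = 0.103). RAB8B was at 38.8, 39.5, 41.6 and 38.9 CPM in the FL and 37.8, 35.7, 38.0 and 34.6 CPM in the LL (log2 difference 0.12, unadjusted p = 0.223). In the later runs alone the lines overlapped for both, with RAB10 at 72.7 to 83.5 CPM in the FL and 65.3 to 81.1 CPM in the LL, and RAB8B at 33.4 to 38.0 and 33.7 to 39.9 CPM. Neither passed the test, and both lie wholly within the deposited span of another feature. For RAB10 that feature is O57660_CHICK (HADHA), with 9546 counts beside the 5172 of RAB10, and for RAB8B it is CA12, with 2 counts. The counts are of exon reads and exon positions were not read, so whether reads of HADHA entered those of RAB10 was not tested.

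RAB8A, of exocytosis and GLUT4 vesicles in mammals, was at 172, 162, 182 and 149 CPM in the FL and 168, 148, 165 and 162 CPM in the LL (log2 difference 0.05, interval -0.16 to 0.26). RAB12 was at 60.5 ± 5.95 and 58.7 ± 8.28 CPM (SD, n = 4). The lines overlapped as well for TBC1D4 and TBC1D1, the GAPs of the insulin pathway named above. TBC1D4, the AKT substrate that holds GLUT4 vesicles back in mammals, was at 246, 271, 178 and 202 CPM in the FL and 258, 238, 238 and 213 CPM in the LL, so that the highest and the lowest bird were both FL (log2 difference -0.08, interval -0.38 to 0.23). TBC1D1, its close relative, was at 54.0, 51.6, 47.6 and 47.5 CPM in the FL and 58.6, 50.9, 50.9 and 59.7 CPM in the LL (log2 difference -0.13, interval -0.35 to 0.09). RAB26, named after its values were seen, was at 14.8 CPM in FL bird 4 and at 5.77 to 7.08 CPM in FL birds 1 to 3. In the later runs alone it was at 7.37, 8.68, 8.47 and 11.6 CPM in the FL and at 8.31 to 11.5 CPM in the LL, so the lines overlapped. With each bird left out, the log2 difference of RAB26 in the sums ranged from -0.49 to 0.10. Only the fit without FL bird 4 had an unadjusted p under 0.05 (edgeR adjusted p = 0.297).

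RAB18, the RAB of the lipid droplet surface, was at 158, 170.4, 143 and 123 CPM in the FL and 177, 131, 105 and 157 CPM in the LL. Both lines spread widely, with the lowest level of each in the bird whose first run was alone in its lane, and they overlapped over most of their range. The log2 difference was 0.06 (SE 0.16, interval -0.30 to 0.43, edgeR adjusted p = 0.914), which covers a fold change from 0.812 to 1.35. In the later runs alone RAB18 was at 142, 147, 124 and 121 CPM in the FL and 143, 120, 111 and 160 CPM in the LL. FL bird 4 and LL bird 3 were again the lowest of their lines. RAB3GAP1 and RAB3GAP2 form the complex that loads RAB18 with GTP in human cells. RAB3GAP2 was at 89.9, 82.0, 90.9 and 75.6 CPM in the FL and 109.9, 108, 94.8 and 87.6 CPM in the LL. LL birds 1 to 3 were above all FL birds and LL bird 4 was among them (log2 difference -0.24, SE 0.11, unadjusted p = 0.049, edgeR adjusted p = 0.379). Its partner RAB3GAP1 was at 86.7, 85.6, 81.6 and 74.8 CPM in the FL and 92.0, 88.1, 81.4 and 83.4 CPM in the LL (log2 difference -0.07, interval -0.27 to 0.13).

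TBC1D20, a GAP of RAB1 proteins whose loss in human cells resembles the loss of RAB18, was at 42.5, 46.1, 42.5 and 58.7 CPM in the FL and 34.6, 47.8, 54.3 and 39.7 CPM in the LL (log2 difference 0.11, interval -0.25 to 0.47). RAB40C, found on lipid droplets of mammalian cells and an adaptor of a ubiquitin ligase, was at 12.2, 11.6, 14.8 and 18.5 CPM in the FL and 12.4, 16.6, 18.7 and 15.2 CPM in the LL (log2 difference -0.13, interval -0.55 to 0.29). Here FL bird 4 and LL bird 3 were the highest of their lines, the opposite order to RAB18. In the later runs alone RAB40C was at 14.7, 16.9, 17.4 and 12.8 CPM in the FL and 19.5, 20.9, 20.5 and 18.6 CPM in the LL. Every LL bird was then above every FL bird and FL bird 4 was the lowest (log2 difference -0.32, unadjusted p = 0.037, edgeR adjusted p = 0.269). RAB32, a RAB of mitochondria and pigment granules, was at 7.95, 3.88, 6.50 and 4.82 CPM in the FL and 8.53, 7.78, 7.42 and 8.41 CPM in the LL (log2 difference -0.45, interval -0.95 to 0.05, unadjusted p = 0.074). FL birds 2 to 4 were below all LL birds and FL bird 1 was within them. RAB7L1 and RAB28 had log2 differences of 0.04 and 0.22.

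Of the 13 ARF-like GTPases tested, 11 had an estimate above 0 (10 with total counts as library sizes), where 5646 of all 11187 genes tested had. Their median log2 fold change was 0.10 (0.05 with total counts). In the first runs alone 7 of 10 were above 0 (median 0.04), and in the later runs alone 8 of 11 (median 0.07). ARL16, a small ARF-like protein whose role is little known, was at 2.50, 3.88, 2.03 and 4.92 CPM in the FL and 0.995, 1.42, 1.34 and 1.79 CPM in the LL. Every FL bird was above every LL bird in the summed runs, while in the later runs alone FL bird 1 (1.75 CPM) was below LL bird 4 (2.29 CPM), and the log2 difference of the sums was 1.26 (SE 0.35, interval 0.49 to 2.04, unadjusted p = 0.004, edgeR adjusted p = 0.158). These levels rest on 7 to 49 counts per bird, and 41.6% of its span lies within another feature, ENSGALG00000019795, with 232 counts against the 149 of ARL16. ARL11, studied in mammals as a tumour suppressor and in macrophages, was at 3.05, 2.74, 2.44 and 4.02 CPM in the FL and 2.56, 0.884, 1.81 and 1.65 CPM in the LL (log2 difference 0.82, SE 0.32, unadjusted p = 0.029, edgeR adjusted p = 0.304). LL bird 1 lay above FL bird 3, so the lines overlapped, on 5 to 40 counts per bird. ARL1, which anchors tethers of the Golgi complex, was at 107 ± 5.00 and 99.6 ± 16.1 CPM (SD, n = 4). The lines overlapped.

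**Figure D3:**
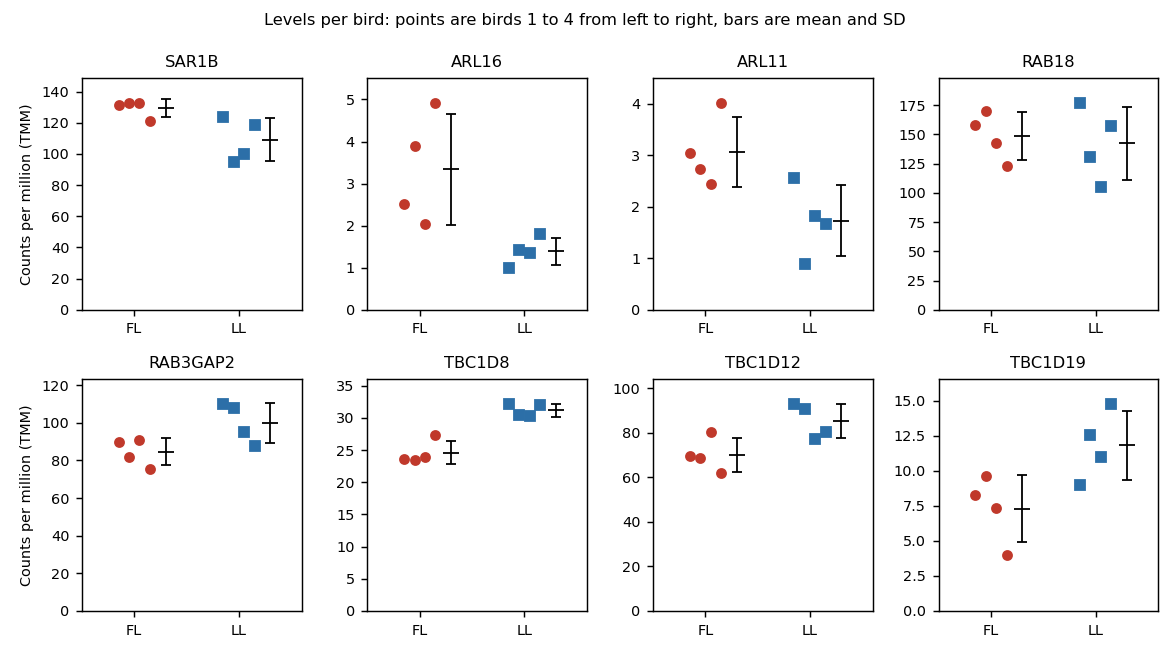
CPM per bird of the 7 members at an unadjusted p under 0.05 and of RAB18, with FL birds as red circles, LL birds as blue squares, birds 1 to 4 from left to right, and mean and SD as bars. The lines are apart without overlap in ARL16 and TBC1D8, and the 2 ranges of RAB18 overlap, from 123 to 170.4 CPM in the FL and from 105 to 177 CPM in the LL.

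Proteins that bind GTPases were mixed. RAB11FIP2, an effector of RAB11 in recycling, was at 175 ± 10.6 CPM in the FL and 163 ± 11.5 CPM in the LL (log2 difference 0.10). RAB3IL1, an exchange factor of the RAB8 and RAB3 groups, was at 85.1, 90.7, 89.8 and 105 CPM in the FL and 104.5, 112, 109.7 and 95.97 CPM in the LL (log2 difference -0.18, SE 0.10, unadjusted p = 0.098). LL bird 4 and FL bird 4 crossed, so the lines overlapped. RAB3IP, its relative, was read at 5.62 to 9.47 CPM in the FL and 1.38 to 6.83 CPM in the LL (log2 difference 0.80, unadjusted p = 0.061), the widest interval of this group.

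Among the TBC1D genes 14 of 20 estimates were below 0, where 5541 of all 11187 genes tested were. With total counts as library sizes 16 of the 20 were below 0, in the first runs alone 11 and in the later runs alone 13. The median log2 fold change of the TBC1D genes was -0.09. The 3 at an unadjusted p under 0.05 were all higher in the LL, where 6.62% of all genes were. TBC1D8 was at 23.6, 23.5, 23.98 and 27.3 CPM in the FL and 32.1, 30.4, 30.2 and 31.99 CPM in the LL. Every LL bird was above every FL bird, with FL bird 4 the closest, and the log2 difference was -0.34 (SE 0.10, interval -0.57 to -0.10, unadjusted p = 0.009, edgeR adjusted p = 0.194). TBC1D12 was at 69.5, 68.5, 80.5 and 61.7 CPM in the FL and 92.9, 90.7, 77.4 and 80.1 CPM in the LL (log2 difference -0.28, SE 0.11, unadjusted p = 0.026, adjusted p = 0.294), and FL bird 3 crossed the 2 lower LL birds. TBC1D19 was at 8.27, 9.59, 7.31 and 4.02 CPM in the FL and 8.96, 12.6, 10.97 and 14.8 CPM in the LL (log2 difference -0.71, SE 0.26, unadjusted p = 0.021, edgeR adjusted p = 0.273). FL bird 4 was far lower than the other birds, and LL bird 1 lay below FL bird 2.

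In fits that left out 1 bird each, ARL16 and TBC1D8 kept an unadjusted p under 0.05 in 8 of 8 fits, TBC1D19 in 7, ARL11 in 4, SAR1B and TBC1D12 in 3 and RAB3GAP2 in 2. Their lowest adjusted p in these fits was 0.131, for TBC1D8. These members were chosen by their p in the same birds, so the counts are no independent support. Of other members, RAB3IP passed in 2 fits and RAB26, RAB32, RAB3IL1 and TBC1D5 in 1 each. In the edgeR fit of the later runs TBC1D19, RAB3GAP2, SAR1B and ARL11 had an unadjusted p under 0.05. TBC1D8 and TBC1D12 were tested there and did not pass. ARL16 was too low for the filter on low counts in the later runs, where 11 of 13 ARF-like GTPases were tested, so it has no p there. TBC1D9B, a GAP that acts on RAB11 in mammals, was at 139 ± 11.1 and 137 ± 8.02 CPM (SD, n = 4), and TBC1D8B at 81.7 ± 11.5 and 89.6 ± 14.7 CPM. The remaining TBC1D genes had log2 differences from -0.23 (TBC1D5) to 0.12 (TBC1D2).

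The runs of a library did not give the same levels for many members. Runs of a bird sequenced 8 libraries per lane differed by no more than counting noise over all genes (chi-square per degree of freedom 0.984 to 1.02). The first run differed from the second, with 4.91 to 8.02 in the 6 birds whose first run shared a lane. The value was 2.34 in FL bird 4 and 1.63 in LL bird 3, whose first run was alone in its lane. RAB18 was at 184.7, 200.8, 160.7, 208.7, 150.2 and 163.7 CPM in the first runs of FL birds 1 to 3 and LL birds 1, 2 and 4, and at 115 to 166 CPM in their later runs. In the first runs of FL bird 4 and LL bird 3, alone in their lane, it was at 107 and 98.9 CPM, with 110.1 to 128 CPM in the later runs. RAB18 was thus higher in the first run than in the later runs combined in 6 of 6 birds that shared a lane and lower in the other 2 birds.

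RAB40C did the reverse in the 6 birds that shared a lane, with 6.63 to 11.9 CPM in their first runs and 14.6 to 21.2 CPM in their later runs. FL bird 4 had 19.5 CPM in its first run and 11.1 and 14.5 CPM in its later runs. LL bird 3 had 17.3 CPM in its first run and 21.8 and 19.2 CPM in its later runs. Of 72 members, 26 (36.1%) were higher in the first run in all 6 birds, and 9 (12.5%) were lower, where 25.4% and 19.5% of all genes tested were. The mean log2 ratio of the first to the later runs over these 6 birds was -0.89 for RAB40C and -0.76 for TBC1D10A near the low end, and 0.48 for RAB4A and 0.41 for SAR1B near the high end. In the 2 birds alone in their lane it was 0.18 for RAB40C (0.60 in FL bird 4 and -0.25 in LL bird 3). For SAR1B it was -0.08 (-0.23 in FL bird 4 and 0.08 in LL bird 3). The first run made up 38.0 to 64.2% of the counts of the 6 birds and 61.8 and 65.2% of those of FL bird 4 and LL bird 3, so the summed level of such a member depends on the mix of runs in each bird.

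**Figure D4:**
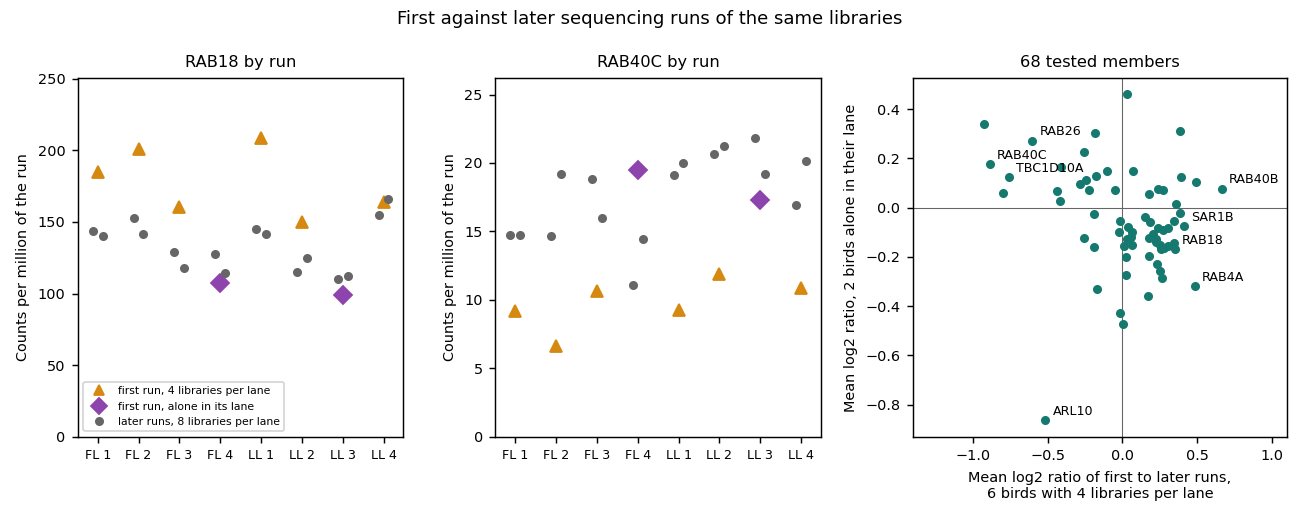
Left and middle, CPM of RAB18 and RAB40C in each run of each bird (totals of the run as library sizes), with first runs as triangles (4 libraries per lane) or diamonds (alone in the lane) and later runs as grey circles; right, mean log2 ratio of first to later runs for 68 of the 72 tested members in the 6 birds that shared a lane against the 2 birds alone. RAB18 was above its later runs and RAB40C below them in first runs that shared a lane, except that RAB18 in LL bird 4 lay within them.

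The order of birds was read in the sums as well. Of the 72 members, 13 (18.1%) had their lowest FL level in bird 4 and their lowest LL level in bird 3, among them RAB14, RAB18, RAB21, RAB7A, RAB3GAP1, TBC1D1 and TBC1D12, against 14.8% of all genes tested. With the 2 later runs alone 11 of 72 had this order, and the share of all genes was not computed for these runs. Each line holds 1 bird whose first run was alone in its lane, and the part of the lanes in the comparison of the lines was not tested. With FL bird 4 and LL bird 3 left out together, an alternative chosen after the data were seen, 0 members were called. In that fit 7 members passed an unadjusted p of 0.05 (1 with the FL and 6 with the LL on top, of 73 tested), against 13.2% of all genes.

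The partners of the GTPases were read from 8 lists of exchange factors, GAPs, effectors, coats, GLUT4-vesicle proteins and prenylation enzymes, of which 109 of 199 symbols were found and 103 tested. None was called (0 of 103 by edgeR and by DESeq2), while 9 (8.74%, against 13.1% of all genes tested) passed an unadjusted p of 0.05, 5 of them higher in FL birds. The median log2 fold change of the lists was -0.03. The birds of the lines did not overlap for 2.91% of the 103 list genes (2 with the FL and 1 with the LL above), against 8.02% of all genes tested. DENND4C, an exchange factor of RAB10 in mammalian fat cells, was at 37.9, 34.7, 40.8 and 30.1 CPM in the FL and 61.6, 52.2, 44.5 and 42.2 CPM in the LL. Every LL bird was above every FL bird (log2 difference -0.48, SE 0.14, unadjusted p = 0.008, edgeR adjusted p = 0.190). YIPF3, a Golgi protein of the family that binds RAB proteins, was at 261, 271, 242 and 253 CPM in the FL and 194, 207, 206 and 236 CPM in the LL (log2 difference 0.29, unadjusted p = 0.013, adjusted p = 0.229), with no overlap.

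Of 15 COPI and COPII genes the interval of 14 lay within 1.5-fold and 1 had an unadjusted p under 0.05, higher in the FL. COPA, of the COPI coat, had a log2 difference of -0.08 and ARCN1 one of 0.11. Of 9 genes for GDP dissociation inhibitors, prenylation and YIPF proteins, all 9 intervals lay within 1.5-fold and 1 gene, YIPF3, had an unadjusted p under 0.05. Of 23 RAB exchange factors, 4 had an unadjusted p under 0.05, 3 of them higher in the FL (17.4%, against 13.1% of all genes), and of 23 RAB effectors tested, 2 did, both higher in the LL. Of the other RAB GAPs (7 tested), the ARF exchange factors (8 tested) and the GLUT4-vesicle proteins (8 tested), none had an unadjusted p under 0.05, and of 10 ARF GAPs 1 did, higher in the LL. RABGAP1, a RAB GAP outside the TBC1D names, spread from 114 to 264 CPM in the FL and from 137 to 246 CPM in the LL (log2 difference 0.11).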

How the data were processed

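The deposited table holds, for each of 24 runs, the counts of unique exon reads per gene that the authors obtained after base calling with CASAVA 1.8.2 by mapping 101-base paired reads to build 2.1 of the chicken genome with Ensembl release 64 in CLC Genomics Workbench 5.1, with at most 2 mismatches and 200 flanking bases added to each gene. Reads that map to several places were left out, so close copies are uncertain. Strand is not given in the sources used here. The authors' normalized columns of single runs (24) and 4 columns of means were not used, nor were the authors' fold changes and p-values, which hold their own comparison.

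The 3 runs of each bird were summed, since they repeat 1 library. Groups came from the sample titles, source names and line labels, which agree, while the description of the 12 LL runs names the fat line, and the lane layout from the study's supplement. Counts per bird (4299772 to 12876999) were filtered with filterByExpr, scaled by TMM and fitted in edgeR 4.0.16 (R 4.3.3), whose quasi-likelihood F test gave the p-values; these were adjusted by the Benjamini-Hochberg method over 11187 genes. The method was tested on simulated data. Every adjusted p is from this test unless another is named. The SE was taken from the F statistic and the interval from the t distribution of the fit. The study tested 24 runs as replicates, which is an alternative here. Others were DESeq2 1.42.0, total counts as library sizes, other filters, subsets of runs, a replicate block, robust dispersion, and each bird left out.

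Named genes are members at an unadjusted p under 0.05, the 3 highest in CPM of each of 9 role classes, a list of 16 droplet, endosome and GLUT4 members where found, and in each partner list the 2 highest in CPM and those at an unadjusted p under 0.01. Other members named were chosen after their values were seen. Members, lists and rule were chosen with earlier results of these data known. Gene names came from the table and a RefSeq gene table of assembly GRCg7b (names and neighbours only). Some ARL identifiers are counted but not reported here. The symbols of 80 of 82 members matched the RefSeq table, 78 on the same chromosome, and RAB6B and RAB39 had no match. Of the members, 15 overlap another feature. Levels per transcript length and protein motifs were not run, and no sequence is shown.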

Additional observations from a re-analysis of the deposited data

Results flagged for a closer look

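For 5 named members, the value of a bird stood apart from the other 3 birds of its line by Dixon's test, of 66 sets of 4 birds checked, where chance gives about 1 in 20. RAB11FIP5, an effector of RAB11, was at 19.4 CPM in LL bird 3 and at 14.1 to 14.9 CPM in the other LL birds. RAB21 was at 41.9 CPM in FL bird 4 against 49.9 to 50.2 CPM, SAR1B at 121 CPM in FL bird 4 against 131 to 133 CPM, and TBC1D8 at 27.3 CPM in FL bird 4 against 23.5 to 23.98 CPM. In the later runs alone SAR1B was at 122 CPM in FL bird 4 against 112 to 116 CPM, then the highest of the line, and TBC1D8 in FL bird 4 (26.96 CPM) was beside FL bird 3 (26.4 CPM). RAB9B was at 4.83 CPM in LL bird 1 against 7.72 to 8.31 CPM. Of the 5, 3 were in FL bird 4, the bird with high skeletal muscle markers and with its first run alone in a lane, and the part of either in these values was not tested.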

How the results depend on the processing

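Depth and the spread of 4 birds per line limit these values: the 95% interval lay within 2-fold for 67 of 72 members and for 15 of the 20 under 10 CPM. Single members had other levels in the first than in the later runs. Whether the mix of runs or overlapping spans changed the differences between the lines was not tested. Among all genes tested, 41 were called (23 with the FL and 18 with the LL on top), 310 by DESeq2, 27 with no filter, 1327 with 24 runs as replicates, 133 in the runs of 8 libraries per lane, 1 in the first runs, 19 without FL bird 4 and LL bird 3 together (chosen after the data were seen), and 2 to 65 with each bird left out, and with total counts as library sizes the split was 20 against 26. The replicate block (the number of the bird) gave 8 calls, 0 of them members; same-numbered birds correlated by -0.12 to 0.23 in their deviations, so the numbers were not used as pairs. Members called stayed at 0 in all of these, except that 24 runs as replicates, which take the runs of 1 library as independent, called 4 (TBC1D8, TBC1D19, SAR1B and RAB3IP), and list genes called stayed at 0 except for 9 in that fit. Members at an unadjusted p under 0.05 were 11 of 66 in that fit and 3 of 69 in the first runs, against 29.5 and 8.30% of all genes. With each bird left out they were 3 to 9, against 10.5 to 14.6% of all genes. With all birds and summed runs they were 7 of 72, against 13.1%. The cause of these changes was not tested.

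Total counts moved the median of all genes by less than 0.1 (to -0.06) and turned the sign of 8 small log2 differences: ARF5_CHICK (-0.039), RAB11FIP5 (-0.031), RAB12 (-0.012), RAB7L1 (-0.011), RAB8A (-0.0042), TBC1D9B (-0.021), GBF1 (-0.035) and EVI5 (-0.050). The first runs alone did so for RAB11FIP5 (-0.12), RAB40C (0.018), RAB7L1 (-0.011), RAB9B (0.32), GBF1 (-0.022) and EVI5 (-0.029). RAB9B also turned with DESeq2 (0.0059), with no filter (0.0021) and with the replicate block (0.014), and ACAP2 with DESeq2 (0.0070), with no filter (0.0029), with 24 runs as replicates (0.0092) and in the runs of 8 libraries per lane (0.017). Without FL bird 4 and LL bird 3, ACAP2 (0.00041), BICD2 (0.00090) and EVI5 (-0.036) turned. With each bird left out, the sign changed within the ranges -0.017 to 0.087 (ARF5_CHICK), -0.10 to 0.15 (RAB11FIP5), -0.021 to 0.14 (RAB12), -0.061 to 0.19 (RAB18), -0.020 to 0.33 (RAB24), -0.010 to 0.14 (RAB7L1), -0.15 to 0.069 (RAB9B), -0.019 to 0.23 (TBC1D20), -0.17 to 0.024 (TBC1D4), -0.0016 to 0.079 (TBC1D9B), -0.21 to 0.031 (ARAP3), -0.027 to 0.048 (ACAP2), -0.23 to 0.0059 (AKT1), -0.010 to 0.26 (SBF1), -0.031 to 0.31 (RABGAP1) and -0.031 to 0.035 (EVI5).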
